A study of Mus musculus with 16 samples.

Results

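Pancreatic stellate cells (PSCs), the fibroblasts of the pancreas that become activated in injury and cancer, were compared with and without sympathetic ganglia in the same culture. The comparison takes 6 of the 16 RNA-seq libraries of the study: 3 of mPSC1 cells grown alone (PSC) and 3 of mPSC1 cells grown with explants of superior cervical ganglia (PSC+SCG). mPSC1 is an immortalized line of mouse PSCs in the activated state, and GEO's labels give its source as fibroblasts of the pancreas. The cocultures lasted about 70 hours, with the PSCs on inserts above 8 to 13 explants from C57BL/6J pups of postnatal day 1 to day 4, so medium was shared without cell contact. All 6 libraries come from 1 cell line, the medium in which explants were washed held nerve growth factor, and the line was maintained in DMEM with fetal bovine serum. How long the PSCs of the PSC libraries were grown alone, and whether with nerve growth factor, is not given in the sources used here. Whether replicates of a group are separate cultures is not stated either, so p-values measure only the spread between these libraries. The members are the protein-coding genes of the PSC table, of which 14541 of 21684 had normalized counts that summed to at least 10 over the 6 libraries and were tested.

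Sympathetic ganglia hold the cell bodies of neurons that release noradrenaline, neuropeptide Y and ATP, together with satellite glia, Schwann cells and fibroblasts. Activated stellate cells secrete collagen, fibronectin and the proteases that cut them, and in tumors they are counted among the cancer-associated fibroblasts (CAFs), in contractile (myofibroblast) and cytokine-secreting (inflammatory) states. They store retinoids while quiescent and lose those stores on activation. Cells make cholesterol from acetyl-CoA through the mevalonate pathway, whose enzymes are transcribed together by SREBP factors when membrane sterols are low.

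The libraries held 31900689 to 41632381 reads on genes in the 5 for which reads could be recovered, and the normalized counts of PSC+SCG replicate 1, the sixth, summed to 36014722. Values below are counts divided by a size factor per library by the authors, given in the order of replicates 1, 2 and 3, and each difference is on the scale of log2(normalized count + 1), which understates changes of genes with few reads. On that scale the replicate 3 libraries of both groups lay apart from the other 4 along the first principal component (41.7 and 55.8, against -35.7 to -15.6), which held 47.5% of the variance. Of 13 fibroblast markers, vimentin, Sparc and both chains of collagen I were among the most abundant, whereas Fap was at 22.2 to 43.5. Of the stellate cell markers, Acta2 was at 20889 to 61518 and Des at 65.5 to 136.1, Gfap was at 0 to 6.8, and Lrat, the enzyme that makes retinyl esters for storage, was at 0 in every library. The defining sympathetic markers Th and Dbh were at 0 to 3.9 in both groups, although SCG explants cultured alone held 8836 to 29967 and 21398 to 45933 in a table normalized separately. Over all 23 sympathetic neuron markers, of which 13 stayed under 10 in every library, the summed level was 2646 to 3511 in PSC and 3458 to 3696 in PSC+SCG. Tubb3 was at 1884.7, 1433.8 and 1203.1 in PSC and 2138.7, 2128.5 and 1724.4 in PSC+SCG. Of the 14 tested, 2 were higher and 0 lower at an unadjusted p under 0.05, against 4.04% and 2.05% of all genes. In all 3 pairs 5 were higher and 2 lower, against 13.6% and 9.94% of all genes. For 10 glia markers the summed level was 275 to 438 and 310.0 to 457. The glial factor Sox10 was at 0 or 1.0 in each library. Of 13 macrophage markers 6 were at 0 in every library, Ptprc, Tyrobp and Itgam among them, and the summed level was 237 to 362 in PSC and 276 to 379 in PSC+SCG, most of it from Cd68 (127.2 to 216.5) and Csf1r (51.1 to 178.7). The 5 with enough reads to be tested had fitted values above 0 with a median of 0.24 (0 at an unadjusted p under 0.05). Of 11 endothelial markers Emcn, Tie1 and Cldn5 were at 0 in every library, Tek was at 27.7 to 141.1 and Flt1 at 43.6 to 87.4, and the sum was 183 to 328 and 207 to 301. The part of these markers in the results was not tested.

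The main limma model held the replicate number as a block, because the study's model held a batch term and same-numbered libraries were taken as pairs. In a check that did not decide this, same-numbered libraries deviated from their group means together, with correlations across genes of 0.303, 0.376 and 0.548 for replicates 1, 2 and 3. Libraries of different number gave -0.461 to 0.19, partly by construction, since the 3 deviations of a group sum to 0. A gene is called higher or lower here where its adjusted p was 0.05 or less and its fold change reached 0.5 on the log2 scale. In PSC+SCG 65 protein-coding genes were higher (0.447% of the genes tested) and 11 were lower (0.0756%), 76 in all (0.523%). Without the block 0 genes passed in limma, with 0.9999 as the lowest adjusted p, 145 genes higher and 60 lower at an unadjusted p under 0.05 and 53 of the 76 genes among them. All 65 higher genes rose in each of the 3 pairs and all 11 lower genes fell in each, against 13.6% and 9.94% of all genes tested, and in 30 and 5 of them the 2 groups did not overlap, against 2.9% and 1.47% of all genes. Since these 76 genes were chosen by the same values, their shares are a description. Which day or batch each library was made in is not given in the sources used here, and whether the change of a gene comes from more RNA per cell or from more cells in a state cannot be told apart in bulk RNA. The counts were 29 higher and 9 lower without the replicate 1 pair, 35 and 8 without the replicate 2 pair, and 144 and 33 without the replicate 3 pair, of which 57 and 6 were among the 76. Past the threshold whichever pair was left out were 16 of the higher genes (Lgr6, Fmo2, Pcdh10, Dhrs3, Sema3c, Parm1, Cyp26b1, Ptpn5, Npy1r, Gria4, Mmp3, Mmd, Rarb, St3gal1, Gda and Gabra3) and 1 lower gene, C1qtnf3. Across all genes the 3 pair differences had little in common, with correlations of 0.12, -0.0362 and 0.0641 between pairs.

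**Figure D1:**
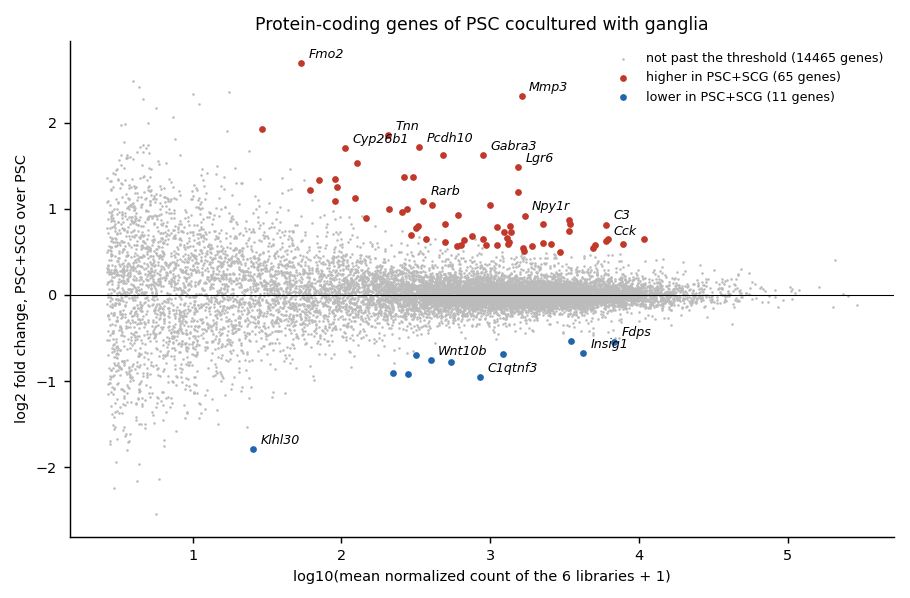
Log2 fold change of PSC+SCG over PSC (y axis) against log10 of the mean normalized count plus 1 (x axis) for the 14541 protein-coding genes tested, with the 65 higher genes in red, the 11 lower genes in blue and the rest in grey. The higher genes reach 2.69 (Fmo2) and lie at low and at high levels, and most of the lower genes lie between -1 and -0.5.

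The higher genes had log2 fold changes from 0.50 to 2.69 with a median of 0.82, and 22 of them were more than 2-fold higher. Their increase was smallest in the first pair for 42 of the 65 genes and largest in the second pair for 45, with pair medians of 0.65, 1.05 and 0.83. The lower genes had log2 fold changes from -1.79 to -0.54, and 8 of the 11 fell most in the third pair, whose median was -1.09 against -0.52 in the first.

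**Figure D2:**
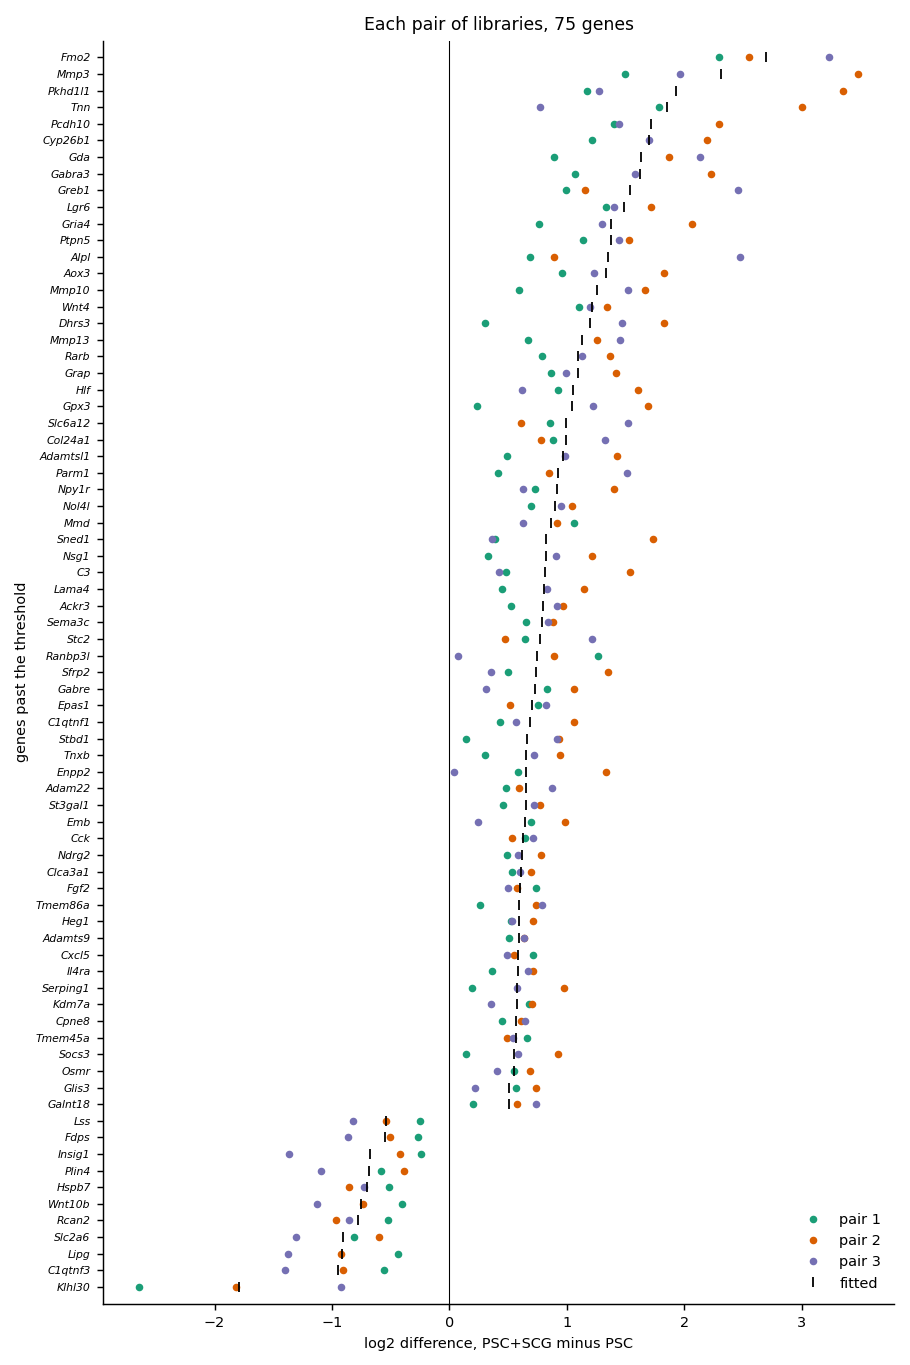
Log2 difference of PSC+SCG minus PSC (x axis) in each same-numbered pair of libraries (colored points) and as fitted (black ticks) for 75 of the 76 genes past the threshold (y axis, ordered by fitted value). All points of the higher genes shown lie right of 0 and all points of the 11 lower genes left of 0.

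Of the retinoid pathway Rarb, Cyp26b1 and Dhrs3 rose. Retinoic acid binds nuclear receptors on repeated sites in DNA, and its own receptor gene Rarb and enzymes that limit retinoic acid are classical targets. Rarb (ENSMUSG00000017491, chr14:5650540-6041094, GRCm39), retinoic acid receptor beta, was at 298, 170.3 and 219.6 in PSC and 517, 442 and 482 in PSC+SCG, so that every cocultured library was above every library of PSCs alone. It was 2.14-fold higher (log2 fold change 1.10 ± 0.16 SE, adjusted p = 0.000741). A RefSeq start within the Rarb gene is preceded by the retinoic acid element, searched on both strands as GTTCA repeated after 6 other bases, which 24 of 27025 genes with a RefSeq promoter window (300 bases around a start) hold (0.0888%). It was the one match among the 52 higher genes with a window, and like the other motifs it was chosen with the genes known. The 100 bases before the start are shown with both copies of GTTCA in capitals, from RefSeq (GRCm38.p6) and placed by exact match on GRCm39, because they belong to a gene that rose in each pair.
Rarb (chr14:5894187-5894286, + strand): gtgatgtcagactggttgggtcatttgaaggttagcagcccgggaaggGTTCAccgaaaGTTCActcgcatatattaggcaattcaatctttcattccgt

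Cyp26b1 (ENSMUSG00000063415, chr6:84548396-84570890), which degrades retinoic acid, was at 79.5, 19.3 and 58.8 in PSC and 186, 91.8 and 194 in PSC+SCG. The groups did not overlap, and the fold was 3.26 (log2 fold change 1.70 ± 0.25 SE, adjusted p = 0.000819). Dhrs3 (ENSMUSG00000066026, chr4:144619245-144654779), which reduces retinal back to retinol, was at 1919, 669 and 502 and then 2365, 2383 and 1390.3, with PSC replicate 1 above PSC+SCG replicate 3. The first pair differed least, by 0.30, the others by 1.83 and 1.47, and the gene was 2.3-fold higher (log2 fold change 1.20 ± 0.17 SE, adjusted p = 0.000819). All 3 genes passed whichever pair was left out. The windows of Cyp26b1 and Dhrs3 hold no such repeat, which says only that these letters are not there. Of 16 retinoid genes tested, these 3 passed as higher (18.8%, against 0.447% of all genes), 0 fell past the threshold, and the median log2 fold change was 0.07 against 0.01 for all genes. Crabp1, a cytosolic retinoic acid binding protein, had the lowest p of the members that did not pass, at 293, 361 and 154 in PSC and 227, 226 and 83.0 in PSC+SCG (log2 fold change -0.64 ± 0.18 SE, adjusted p = 0.117).

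Proteases of the matrix were the second group. Mmp3 (ENSMUSG00000043613, chr9:7445822-7455975), stromelysin-1, was at 1004, 377 and 271 in PSC and 2828, 4228 and 1056 in PSC+SCG. Every cocultured library was above every PSC library, and the gene was 4.97-fold higher (log2 fold change 2.31 ± 0.21 SE, adjusted p = 1.36e-06), although the pairs ranged from 1.49 to 3.48. Its relatives in the same cluster of chromosome 9, Mmp10 (stromelysin-2, chr9:7502353-7510241) and Mmp13 (collagenase-3, chr9:7272514-7283331), were higher as well. Mmp10 was at 71.9, 44.3 and 47.2 and then 109, 143 and 137, without overlap (log2 fold change 1.26 ± 0.25 SE, adjusted p = 0.0198). Mmp13 was at 123, 97.6 and 23.1 and then 196, 235 and 64.9, where replicate 3 of each group was the lowest and the groups overlapped (log2 fold change 1.13 ± 0.23 SE, adjusted p = 0.0223). Each of the 3 promoters holds an AP-1 site, the heptamer TGANTCA that Fos and Jun proteins bind, within the last 100 bases before the start. The motif was searched on both strands after the genes had been seen to rise, and 8.97% of genes with a window hold it, against 7 of the 52 higher genes with a window. The 3 windows are set side by side, from RefSeq with GRCm39 positions and the site in capitals, because these genes of one cluster all rose.
Mmp3 (chr9:7445722-7445821, + strand): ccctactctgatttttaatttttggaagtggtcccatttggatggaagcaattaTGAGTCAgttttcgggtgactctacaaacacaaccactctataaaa
Mmp10 (chr9:7502243-7502342, + strand): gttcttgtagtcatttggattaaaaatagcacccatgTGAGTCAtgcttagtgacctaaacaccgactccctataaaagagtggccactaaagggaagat
Mmp13 (chr9:7272414-7272513, + strand): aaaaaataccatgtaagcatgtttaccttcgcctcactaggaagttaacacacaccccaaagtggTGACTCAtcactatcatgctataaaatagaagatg

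In Mmp3 the site starts 46 bases before the transcript, in Mmp10 63 and in Mmp13 35 bases before it, and a TATA-like tataaa stretch follows in each. Of the 42 metalloproteinases, ADAMTS proteins and TIMPs tested, 5 rose (11.9%, against 0.447% of all genes) and 0 fell, the other 2 being Adamts9 and Adamtsl1. Adamts9, a protease of large proteoglycans, was at 2367, 1687 and 2095 in PSC and 3358, 2619 and 3249.8 in PSC+SCG, without overlap (log2 fold change 0.59 ± 0.10 SE, adjusted p = 0.00474). Adamtsl1, a protease-like protein without the catalytic domain, was at 236, 159 and 122 and then 332, 429 and 244, also without overlap (log2 fold change 0.97 ± 0.18 SE, adjusted p = 0.0123). Mmp10, Adamts9 and Adamtsl1 did not pass without the replicate 2 pair (log2 fold changes 1.06, 0.57 and 0.74), and Mmp13 passed only without the replicate 3 pair (1.35, 1.06 and 0.96 without pairs 1, 2 and 3). The list's median was 0.11, and 15 of its members were higher in all 3 pairs and 2 lower in all 3, against 13.6% and 9.94% of all genes.

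Among structural matrix genes 2 of 33 matricellular and fibrillar glycoproteins rose, Tnn and Tnxb (6.06%, against 0.447% of all genes), and 0 fell. Tnn (ENSMUSG00000026725), tenascin-N (also called tenascin-W), was at 129, 52.2 and 63.6 in PSC and 449, 425 and 109.6 in PSC+SCG. Replicates 1 and 2 of the coculture were far above the rest, and replicate 3 lay below PSC replicate 1 (log2 fold change 1.85 ± 0.27 SE, adjusted p = 0.000819). Tnxb, tenascin-X, was at 776, 694 and 602 and then 956, 1332 and 992, with no overlap (log2 fold change 0.65 ± 0.13 SE, adjusted p = 0.0181). Lama4, a laminin chain of basement membranes, was at 1588, 818 and 642 and then 2161, 1813 and 1139 (log2 fold change 0.81 ± 0.12 SE, adjusted p = 0.0016), the one gene past the threshold among 30 laminin and integrin genes (3.33%, against 0.447% of all genes). Col24a1, a minor fibrillar collagen, was at 255, 148 and 146 and then 471, 255 and 368 (log2 fold change 1.0 ± 0.17 SE, adjusted p = 0.0042), the one past the threshold among 41 collagen chains tested (2.44%), whose median was 0.15. Without the replicate 2 pair Tnxb (0.51) and Lama4 (0.64) did not pass, and without the replicate 1 pair Tnn (1.89) and Col24a1 (1.05) did not. Fibronectin, Fn1, was the most abundant of the matrix glycoproteins listed and did not overlap between groups, at 173472, 202229 and 157737 in PSC and 222876, 222514 and 262826 in PSC+SCG, but its fold change did not pass (log2 fold change 0.41 ± 0.15 SE, adjusted p = 0.326). Of 22 collagen-modifying enzymes 0 passed by limma's test (6 were higher and 0 lower at an unadjusted p under 0.05, against 4.04% and 2.05% of all genes), with a median of 0.11. Among them Plod2, a lysyl hydroxylase that the study's text names, differed by 0.60, 0.56 and 0.02 in the 3 pairs (log2 fold change 0.39 ± 0.11 SE, adjusted p = 0.135), and passed without the replicate 3 pair (0.58).

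**Figure D3:**
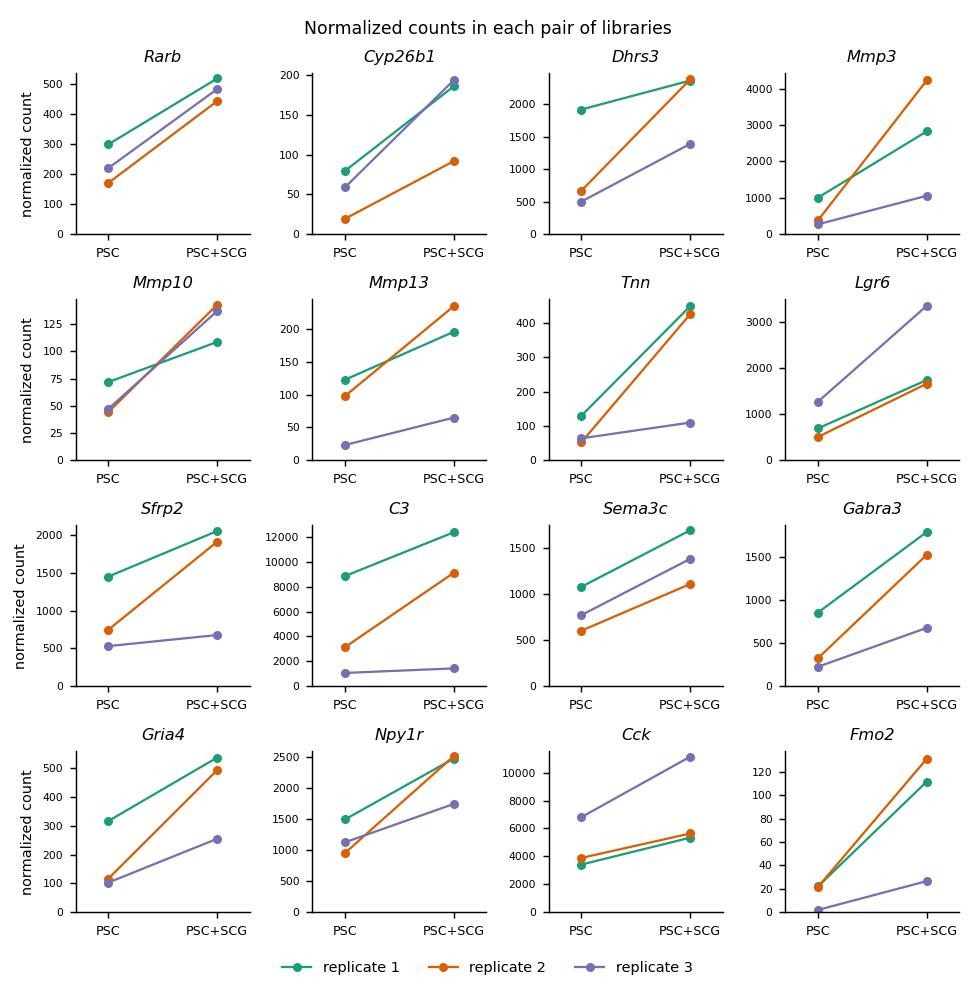
Normalized counts (y axis, from 0 in each panel) of 16 higher genes in PSC and PSC+SCG libraries (x axis), with a line for each same-numbered pair. Every line rises, whereas the starting level differs between replicates; replicate 3 is the lowest for C3 and Mmp13 and the highest for Lgr6 and Cck.

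Wnt signals, which are read by Frizzled receptors and amplified by R-spondins through Lgr receptors, formed the one list with members past the threshold in both directions. Lgr6 had the smallest p of all protein-coding genes and was at 692, 506 and 1272 in PSC and 1746, 1666 and 3363 in PSC+SCG. It rose by a similar factor from different starting levels, by 1.33, 1.72 and 1.40 in the 3 pairs (log2 fold change 1.48 ± 0.11 SE, adjusted p = 6.15e-08). Wnt4, a Wnt ligand, was at 55.0, 32.9 and 21.2 and then 119.6, 84.9 and 50.0 (log2 fold change 1.22 ± 0.27 SE, adjusted p = 0.0478). Sfrp2, a secreted Wnt antagonist and a fibroblast product, was at 1454, 749 and 532 and then 2059, 1917 and 679, with the second pair differing most (log2 fold change 0.74 ± 0.14 SE, adjusted p = 0.0182). Wnt10b (chr15:98668593-98690045), a ligand of the canonical pathway, fell without overlap from 424, 587 and 485 in PSC to 320.4, 351 and 221 in PSC+SCG (log2 fold change -0.76 ± 0.15 SE, adjusted p = 0.0223). Its paralog Wnt10a was at 25.4, 38.6 and 34.7 and then 11.9, 17.8 and 5.32, without overlap, but did not pass (log2 fold change -1.54 ± 0.41 SE, adjusted p = 0.107). Lgr6 passed whichever pair was left out, Wnt4 and Sfrp2 passed only without the replicate 3 pair (1.22 and 0.93), Sfrp2 was at 0.43 without the replicate 2 pair, and Wnt10b passed only without the replicate 1 pair (-0.93). Of 37 Wnt genes tested 3 rose and 1 fell (8.11% and 2.7%, against 0.447% and 0.0756% of all genes), 16 were higher and 5 lower in all 3 pairs (13.6% and 9.94% of all genes), and the median was 0.25 (0.10, 0.41 and 0.35 in the pairs). Rspo3 (log2 fold change 0.65 ± 0.16 SE, adjusted p = 0.0701) and Fzd10 (log2 fold change 1.10 ± 0.28 SE, adjusted p = 0.0771) were the members nearest to the threshold, and Rspo3 passed without the replicate 3 pair (0.75) and was at 0.40 without the replicate 2 pair. Wnt5a, which the study's text names, was at 621, 388 and 677 and then 732, 553 and 979.7 (log2 fold change 0.43 ± 0.13 SE, adjusted p = 0.162).

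Genes of innate defense and of cytokine response formed a further group. C3, the central complement component, was at 8855, 3133 and 1064 in PSC and 12378, 9119 and 1431 in PSC+SCG. Replicate 1 was the highest and replicate 3 the lowest in both groups, and PSC replicate 1 was above PSC+SCG replicate 3, so the groups overlapped (log2 fold change 0.82 ± 0.15 SE, adjusted p = 0.00739). Without the replicate 2 pair the log2 fold change of C3 was 0.45, without the replicate 3 pair 1.01, and it passed only in the latter. Serping1, the inhibitor of C1, was at 1249.7, 976 and 454 and then 1425, 1918 and 677 (log2 fold change 0.58 ± 0.13 SE, adjusted p = 0.048). Serping1 passed only without the replicate 3 pair (0.58), and was at 0.77 and 0.38 without pairs 1 and 2. Of the 12 complement genes tested 3 rose (25.0%, against 0.447% of all genes), C3 and Serping1 among them, and 0 fell. Of 19 genes typical of inflammatory fibroblasts 2 rose, C3 and the neutrophil chemokine Cxcl5 (log2 fold change 0.59 ± 0.12 SE, adjusted p = 0.0188), and 0 fell, with a median of 0.35, against 0.447% of all genes higher and a median of 0.01. Has2, which makes hyaluronan, was at 1131, 669 and 975 in PSC and 1669, 855 and 1311 in PSC+SCG (log2 fold change 0.45 ± 0.11 SE, adjusted p = 0.0771). In the IL-6 family and its STAT3 pathway 2 of 23 rose (8.7%, against 0.447%): Osmr, the oncostatin M receptor, at 5880.0, 3804 and 2250.2 and then 8627, 6136 and 2975 (log2 fold change 0.55 ± 0.10 SE, adjusted p = 0.00906), and Socs3, the feedback inhibitor that STAT3 induces, at 1902, 1127 and 1079.8 and then 2095, 2144 and 1616 (log2 fold change 0.55 ± 0.12 SE, adjusted p = 0.048). Both overlapped between groups, without the replicate 2 pair neither passed (0.48 and 0.36), and 7 members were higher and 0 lower at an unadjusted p under 0.05, against 4.04% and 2.05% of all genes. Il4ra, the receptor chain for IL-4 and IL-13, was at 5278, 2939 and 4078 and then 6785, 4827 and 6501 (log2 fold change 0.58 ± 0.10 SE, adjusted p = 0.00619), and Ackr3, a scavenger receptor of the chemokine Cxcl12, at 402, 135 and 196 and then 579, 264 and 369 (log2 fold change 0.80 ± 0.16 SE, adjusted p = 0.0183). Without the replicate 1 pair Cxcl5, Osmr and Ackr3 did not pass (0.52, 0.55 and 0.94), and without the replicate 2 pair Cxcl5, Il4ra and Ackr3 did not (0.60, 0.52 and 0.72).

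Several higher genes encode receptors or surface proteins better known from neurons. Gabra3 and Gabre, which encode GABA-A receptor subunits and lie near each other on the X chromosome (chrX:71476275-71700723 and chrX:71299605-71318409), both rose. Gabra3 was at 852, 324 and 224 in PSC and 1786, 1522 and 675 in PSC+SCG (log2 fold change 1.63 ± 0.16 SE, adjusted p = 2.9e-06), and Gabre was at 1388, 991 and 635 and then 2465, 2071 and 787 (log2 fold change 0.73 ± 0.13 SE, adjusted p = 0.00559). With Gria4, an AMPA receptor subunit, at 317, 117 and 103 and then 538, 494 and 255, they were 3 of 29 glutamate and GABA genes tested (10.3%, against 0.447% of all genes higher), and 0 fell. Replicate 1 was the highest of each group for all 3, and Gabre passed only without the replicate 3 pair (0.95), whereas the other two passed whichever pair was left out. Slc6a12, a betaine and GABA transporter, was not on the list of glutamate and GABA genes and is not in its count. Its level was 145, 89.7 and 155 and then 265, 137 and 448 (log2 fold change 1.0 ± 0.20 SE, adjusted p = 0.0181). With a pair left out, Slc6a12 passed only without the replicate 2 pair (1.19). Npy1r, which encodes a receptor of neuropeptide Y, was the one gene past the threshold among 20 receptors for sympathetic transmitters (5.0%), and differed by 0.73, 1.40 and 0.63 in the pairs (log2 fold change 0.92 ± 0.13 SE, adjusted p = 0.00057). P2rx5, a receptor of ATP, was at 337, 445 and 302 in PSC and 237, 364 and 136 in PSC+SCG (log2 fold change -0.65 ± 0.17 SE, adjusted p = 0.098). Among 66 axon guidance genes 1 rose (1.52%, against 0.447% of all genes), Sema3c, a secreted semaphorin, at 1081, 604 and 774 and then 1697, 1112 and 1386 without overlap (log2 fold change 0.79 ± 0.11 SE, adjusted p = 0.000808). Pcdh10, a protocadherin that joins cells by homophilic contact, was at 186, 134 and 141 and then 494, 663 and 384 (log2 fold change 1.72 ± 0.18 SE, adjusted p = 8.34e-06), the one past the threshold among 68 cadherins and protocadherins tested (1.47%). Npy1r, Sema3c and Pcdh10 passed whichever pair was left out. The defining sympathetic markers Th and Dbh were at or near 0 in both groups, whereas others such as Tubb3 were not. Of 17 neurotrophic factors and receptors 0 passed by limma's test, with 0 at an unadjusted p under 0.05 and a median of -0.17. Transcripts of cyclic AMP and immediate early response gave 0 of 30 past the threshold, 3 higher and 3 lower at an unadjusted p under 0.05, Dusp1 at 0.40 and Egr1 at -0.44 among them.

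The study's text names 16 genes for these libraries, and 11 of them were past the threshold, all higher, with a median of 0.62. The study chose them on these same samples, so their direction is not independent evidence. Mmd, a membrane protein of the progestin receptor family, was at 2650.0, 2072 and 2472 in PSC and 5533, 3906 and 3825 in PSC+SCG, without overlap (log2 fold change 0.87 ± 0.11 SE, adjusted p = 9.38e-05); 25.7% of its exonic sequence is shared with Smim36, which has the same strand. St3gal1, a sialyltransferase, was at 5963, 3825 and 4753 and then 8205, 6514 and 7840.0, also without overlap (log2 fold change 0.65 ± 0.10 SE, adjusted p = 0.00165). Fgf2, a growth factor of fibroblasts and neurons, was at 2115, 1395 and 1873 and then 3523, 2083 and 2655 (log2 fold change 0.61 ± 0.10 SE, adjusted p = 0.00474), and did not pass without the replicate 1 pair (0.54). Cck, the precursor of cholecystokinin and the one of 11 neuropeptide precursors to pass (9.09%, against 0.447% of all genes), was at 3413, 3888 and 6810.4 and then 5340.2, 5638 and 11144, highest in replicate 3 of both groups (log2 fold change 0.63 ± 0.10 SE, adjusted p = 0.00165), and did not pass without the replicate 1 pair (0.62). The 5 that did not pass were Plod2, Wnt5a, Slc1a3, Fap and Gas1. The study counts Plod2, Slc1a3 and Gas1 among the genes raised past its own DESeq2 threshold. It names Fap and Wnt5a only among the top genes of an enriched gene set, that of epithelial-mesenchymal transition. Fap had few reads, at 29.6, 28.4 and 22.2 and then 43.5, 40.5 and 37.2, without overlap. Its log2 fold change of 0.59 ± 0.32 SE reached 0.5, but its adjusted p did not pass (0.694). Slc1a3, a glutamate transporter, was at 2469, 2115 and 2261 and then 3840.3, 3104 and 2574, without overlap (log2 fold change 0.46 ± 0.11 SE, adjusted p = 0.057). Gas1, a membrane protein of growth arrest, differed by 0.48, 0.78 and -0.50 in the pairs, and was at 0.14, -0.01 and 0.63 without pairs 1, 2 and 3. Without the replicate 3 pair Gas1, Slc1a3 (0.60) and Plod2 (0.58) passed, and without either of the other pairs none of the 5 did.

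Outside these groups the largest increase of all was that of Fmo2 (ENSMUSG00000040170, chr1:162701873-162726295), a flavin monooxygenase, at 22.0, 21.6 and 1.93 in PSC and 112, 131 and 26.6 in PSC+SCG. Its groups did not overlap, and the fold was 6.47 (log2 fold change 2.69 ± 0.35 SE, adjusted p = 0.000217), with the lowest counts in replicate 3 of each group. Among other enzymes that rose, Gda, guanine deaminase of purine breakdown, was at 477, 252 and 63.6 and then 884, 925 and 283 (log2 fold change 1.63 ± 0.18 SE, adjusted p = 3.08e-05), Aox3, an aldehyde oxidase, at 82.0, 34.1 and 5.78 and then 160.2, 123 and 14.9 (log2 fold change 1.34 ± 0.30 SE, adjusted p = 0.048), and Gpx3, a secreted glutathione peroxidase, at 1283, 618 and 172 and then 1507, 1994 and 403 (log2 fold change 1.05 ± 0.18 SE, adjusted p = 0.00409). All 3 were lowest in replicate 3 within each group, and their groups overlapped. Alpl, the tissue-nonspecific alkaline phosphatase, was at 83.7, 44.3 and 28.9 and then 135, 82.9 and 165 (log2 fold change 1.35 ± 0.29 SE, adjusted p = 0.0376), with the largest difference in the third pair, and it passed only without the replicate 2 pair (1.58) and was at 0.79 without the replicate 3 pair. Ptpn5, a tyrosine phosphatase known from the striatum, was at 187, 96.5 and 162 and then 412, 281 and 444, without overlap (log2 fold change 1.37 ± 0.17 SE, adjusted p = 9.41e-05). Greb1, an estrogen-responsive gene, was at 86.2, 87.4 and 31.8 and then 173, 196 and 179, without overlap (log2 fold change 1.54 ± 0.25 SE, adjusted p = 0.00355). Fmo2, Gda and Ptpn5 passed whichever pair was left out, Greb1 did not without the replicate 1 pair (1.81), Gpx3 did not without the replicate 2 pair (0.73), and Aox3 passed only without the replicate 3 pair (1.39). Of transcription factors, Hlf, a PAR bZIP factor and the one of 18 clock-related genes to pass (5.56%, against 0.447% of all genes), was at 391, 202 and 185 and then 744, 618 and 284 (log2 fold change 1.05 ± 0.17 SE, adjusted p = 0.00258). Epas1, which encodes HIF-2alpha, was at 227, 186 and 251 and then 383, 267 and 447 (log2 fold change 0.70 ± 0.16 SE, adjusted p = 0.0455). Hlf passed only without the replicate 3 pair (1.27), and Epas1 with no pair left out (0.67, 0.79 and 0.64 without pairs 1, 2 and 3). Glycolysis and hypoxia response genes gave 0 of 29 past the threshold (2 higher and 2 lower at an unadjusted p under 0.05), with a median of 0.07. Among the 2 higher, Pfkfb3 had an adjusted p of 0.0457, but its log2 fold change of 0.497 ± 0.11 SE was just under 0.5.

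Other higher genes encode secreted, membrane and nuclear proteins. Enpp2, autotaxin, which makes lysophosphatidic acid, was at 11374, 8298 and 3609 in PSC and 17095, 20862 and 3709 in PSC+SCG (log2 fold change 0.65 ± 0.15 SE, adjusted p = 0.048). Replicate 3 hardly differed between groups, by 0.04, and without the replicate 2 pair its value was 0.31. Stc2, the secreted glycoprotein stanniocalcin-2, was at 211, 219 and 252 and then 330.2, 304 and 586, without overlap (log2 fold change 0.77 ± 0.17 SE, adjusted p = 0.0344). Parm1, a membrane mucin, was at 595, 399.6 and 296 and then 795, 721 and 845, also without overlap, and passed whichever pair was left out (log2 fold change 0.93 ± 0.16 SE, adjusted p = 0.00483). Sned1, a matrix glycoprotein, was at 3166, 1237 and 449.9 and then 4144, 4111 and 578, with a spread between replicates larger than the difference (log2 fold change 0.83 ± 0.17 SE, adjusted p = 0.0254). Nsg1, an endosomal protein of neurons, was at 664, 229 and 252 and then 834, 535 and 476 (log2 fold change 0.82 ± 0.16 SE, adjusted p = 0.0136). Ndrg2 was at 468, 352 and 351 and then 658, 604 and 526, without overlap (log2 fold change 0.62 ± 0.13 SE, adjusted p = 0.041), and Glis3, a zinc finger factor, and Kdm7a, a histone demethylase, were higher without overlap, with log2 fold changes of 0.51 and 0.58 (adjusted p = 0.0453 and 0.0444). Pkhd1l1 had few reads, at 16.1, 6.81 and 8.67 and then 37.6, 78.9 and 22.3 (log2 fold change 1.93 ± 0.43 SE, adjusted p = 0.0455). Enpp2, Sned1, Ndrg2, Glis3, Kdm7a and Pkhd1l1 passed only without the replicate 3 pair (0.96, 1.06, 0.63, 0.65, 0.69 and 2.27), and without the replicate 2 pair Sned1 was at 0.37 and Pkhd1l1 at 1.22. Stc2 passed only without the replicate 2 pair (0.93), and Nsg1 not without the latter (0.62).

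On the lower side the sterol pathway was the one list with more than 1 member past the threshold. Fdps (chr3:89000888-89019213), which makes farnesyl pyrophosphate, was at 6425, 10877 and 6852 in PSC and 5346, 7665 and 3760.4 in PSC+SCG. Its pair differences were -0.27, -0.50 and -0.87 (log2), and the groups overlapped because replicate 2 was the highest of each group and PSC+SCG replicate 2 lay above PSC replicates 1 and 3 (log2 fold change -0.55 ± 0.11 SE, adjusted p = 0.0205). Lss (chr10:76367298-76392976), lanosterol synthase, was at 3134, 5306 and 4022 and then 2628, 3650.1 and 2275, where PSC+SCG replicate 2 lay above PSC replicate 1 (log2 fold change -0.54 ± 0.11 SE, adjusted p = 0.022). Insig1, the sterol-sensing protein that holds SREBP in the endoplasmic reticulum and is itself an SREBP target, was at 4389, 6346 and 4504 and then 3708, 4742 and 1744 (log2 fold change -0.68 ± 0.14 SE, adjusted p = 0.0295). Its difference was largest in the third pair. Without the replicate 3 pair none of these 3 genes passed, with log2 fold changes of -0.38 for Fdps, -0.40 for Lss and -0.33 for Insig1, and Fdps and Insig1 did not pass without the replicate 1 pair either (-0.69 and -0.89), nor Lss without the replicate 2 pair (-0.54). Of 21 cholesterol synthesis enzymes tested 2 fell (9.52%) and 0 rose, against 0.0756% of all genes lower. All 21 had a fitted value below 0, from -0.55 to -0.09, as did 6801 of all 14541 genes tested. The median was -0.35 against 0.01 for all genes, 17 were lower and 0 higher at an unadjusted p under 0.05 (2.05% of all genes were lower at that p), and 12 were lower in all 3 pairs (9.94% of all genes were). The pair medians were -0.09, -0.36 and -0.65, and without the replicate 3 pair the median was -0.19.

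**Figure D4:**
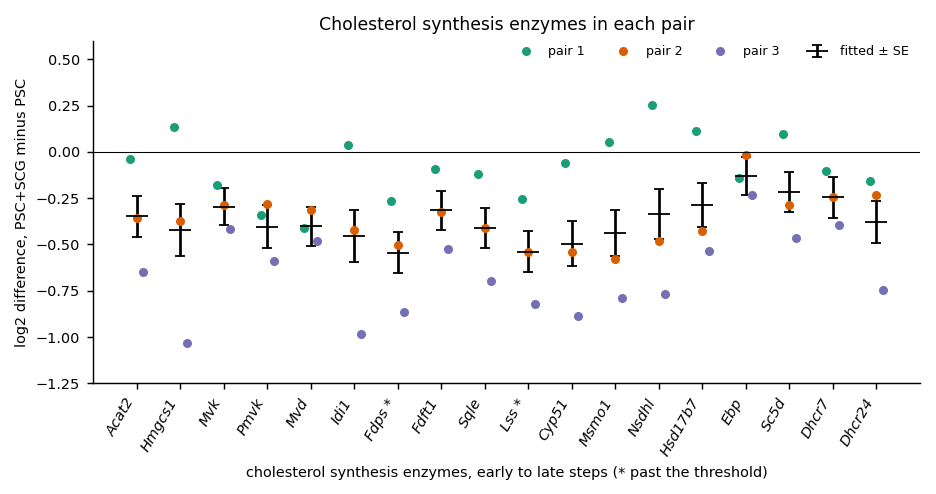
Log2 difference of PSC+SCG minus PSC (y axis) for 18 of the 21 cholesterol synthesis enzymes (Lbr and Tm7sf2, whose sign differed between settings, are among those left out) in approximate order of the pathway (x axis), as points for the 3 pairs and as the fitted value with its standard error. Pair 3 is the lowest point for each enzyme shown, pair 1 is above 0 for 6 of them, and Fdps and Lss are past the threshold.

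Most of the enzymes were below 0 without passing. Hmgcs1, an early enzyme that makes HMG-CoA, was at 4409.5, 5919 and 5340.4 in PSC and 4842, 4573 and 2606 in PSC+SCG, with overlapping groups (log2 fold change -0.42 ± 0.14 SE, adjusted p = 0.241). Cyp51, which demethylates lanosterol, was at 7229, 9869.6 and 8708 in PSC and 6937, 6792 and 4703 in PSC+SCG, without overlap (log2 fold change -0.50 ± 0.12 SE, adjusted p = 0.07), and passed without the replicate 1 pair (-0.71) but was at -0.30 without the replicate 3 pair. Sqle, squalene epoxidase, was at 6348, 8938 and 7771 and then 5839, 6712 and 4785 (log2 fold change -0.41 ± 0.11 SE, adjusted p = 0.098). Among 18 regulators and carriers of sterols 1 fell (Insig1, 5.56%, against 0.0756% of all genes) and 0 rose. At an unadjusted p under 0.05 they gave 4 lower and 1 higher, and the median was 0.01. Srebf2, the main sterol SREBP gene, had a log2 fold change of -0.27 ± 0.10 SE (adjusted p = 0.366). Abcg1, which exports sterols and is induced by them, was in the other direction without overlap, at 57.5, 46.5 and 50.1 and then 106, 119 and 75.5 (log2 fold change 0.93 ± 0.25 SE, adjusted p = 0.112), and passed without the replicate 3 pair (1.10). Fatty acid synthesis gave 0 of 14 past the threshold (0 higher and 1 lower at an unadjusted p under 0.05), with a median of -0.10.

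Of the 21 enzymes, 16 have a RefSeq promoter window, and 15 of these hold the letters CCAAT on either strand, the box that NF-Y binds, as do 41.1% of all genes with a window. The sterol element TCACCCCAC was found in 1 of the 16, Hmgcs1, and in 0.614% of all genes. Windows of Lss and Hmgcs1 are shown as one enzyme past the threshold and the one with this element, with ATTGG, the CCAAT box read on the other strand, in capitals for Lss and the sterol element in capitals for Hmgcs1. The RefSeq start of Lss lies inside the gene as the GENCODE release used here for positions bounds it.
Lss (chr10:76367339-76367438, + strand): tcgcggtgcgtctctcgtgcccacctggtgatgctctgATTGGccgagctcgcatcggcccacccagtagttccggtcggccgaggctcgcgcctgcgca
Hmgcs1 (chr13:120151727-120151886, + strand): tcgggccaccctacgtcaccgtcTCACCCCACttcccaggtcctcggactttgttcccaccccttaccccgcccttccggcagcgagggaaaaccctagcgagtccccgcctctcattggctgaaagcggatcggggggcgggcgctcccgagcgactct

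Apart from Wnt10b, the other 7 lower genes belonged to none of the lists. C1qtnf3, a secreted C1q and TNF related protein (also called cartducin), was at 1216, 1067 and 1041 in PSC and 829, 568 and 395 in PSC+SCG, without overlap, and was the lower gene with the smallest p (log2 fold change -0.95 ± 0.14 SE, adjusted p = 0.000819). Rcan2, an inhibitor of calcineurin, was at 605, 807 and 646 and then 420.2, 413 and 357, without overlap (log2 fold change -0.78 ± 0.14 SE, adjusted p = 0.0056). Hspb7, a small heat shock protein of muscle, was at 337, 367 and 472 and then 235, 202 and 285, without overlap (log2 fold change -0.70 ± 0.15 SE, adjusted p = 0.041). Klhl30 had few reads, at 42.3, 51.1 and 23.1 and then 5.93, 13.8 and 11.7, without overlap, and the largest fall (log2 fold change -1.79 ± 0.41 SE, adjusted p = 0.0496). C1qtnf3 passed whichever pair was left out, Rcan2 not without the replicate 2 pair (-0.69), and Hspb7 and Klhl30 only without the replicate 3 pair (-0.69 and -2.23). Lipg (endothelial lipase), Plin4 (a coat protein of lipid droplets) and Slc2a6 (a glucose transporter) fell in each pair with overlapping groups, with log2 fold changes of -0.91, -0.69 and -0.91 (adjusted p = 0.0191, 0.0121 and 0.0217). Lipg did not pass without the replicate 2 pair (-0.91), Plin4 passed only without that pair (-0.84), and Slc2a6 only without the replicate 3 pair (-0.71).

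Translation genes gave no gene past the threshold, and their displacement was small and not shared by the pairs. Of 80 cytosolic ribosomal protein genes tested 0 passed by limma's test (0 higher and 4 lower at an unadjusted p under 0.05, against 4.04% and 2.05% of all genes). However, 75 had a fitted value below 0, as did 6801 of all 14541 genes tested, and the median was -0.09. The pair medians were -0.28, -0.09 and 0.10, and without the replicate 1 pair the median was 0.0042, on the other side of 0. Rps28 had the smallest p, at 9929, 11211 and 11722 in PSC and 5953, 9992 and 11608 in PSC+SCG (log2 fold change -0.31 ± 0.12 SE, adjusted p = 0.372). Ribosomal protein genes took 3.78%, 3.63% and 4.44% of the normalized counts in PSC and 3.16%, 3.48% and 4.51% in PSC+SCG, so that the replicate 3 libraries held the most in both groups. Translation factors (48 genes), ribosome biogenesis (33), aminoacyl-tRNA synthetases (22) and mitochondrial ribosomal proteins (78) each had 0 genes past the threshold, with 0, 3, 0 and 1 lower and 0 higher at an unadjusted p under 0.05, and medians of -0.03, -0.13, -0.03 and -0.05. In all 4 the median of pair 3 was positive, from 0.06 to 0.21. The respiratory chain and ATP synthase gave 0 of 66 past the threshold (0 higher and 1 lower at an unadjusted p under 0.05) with a median of -0.07.

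**Figure D5:**
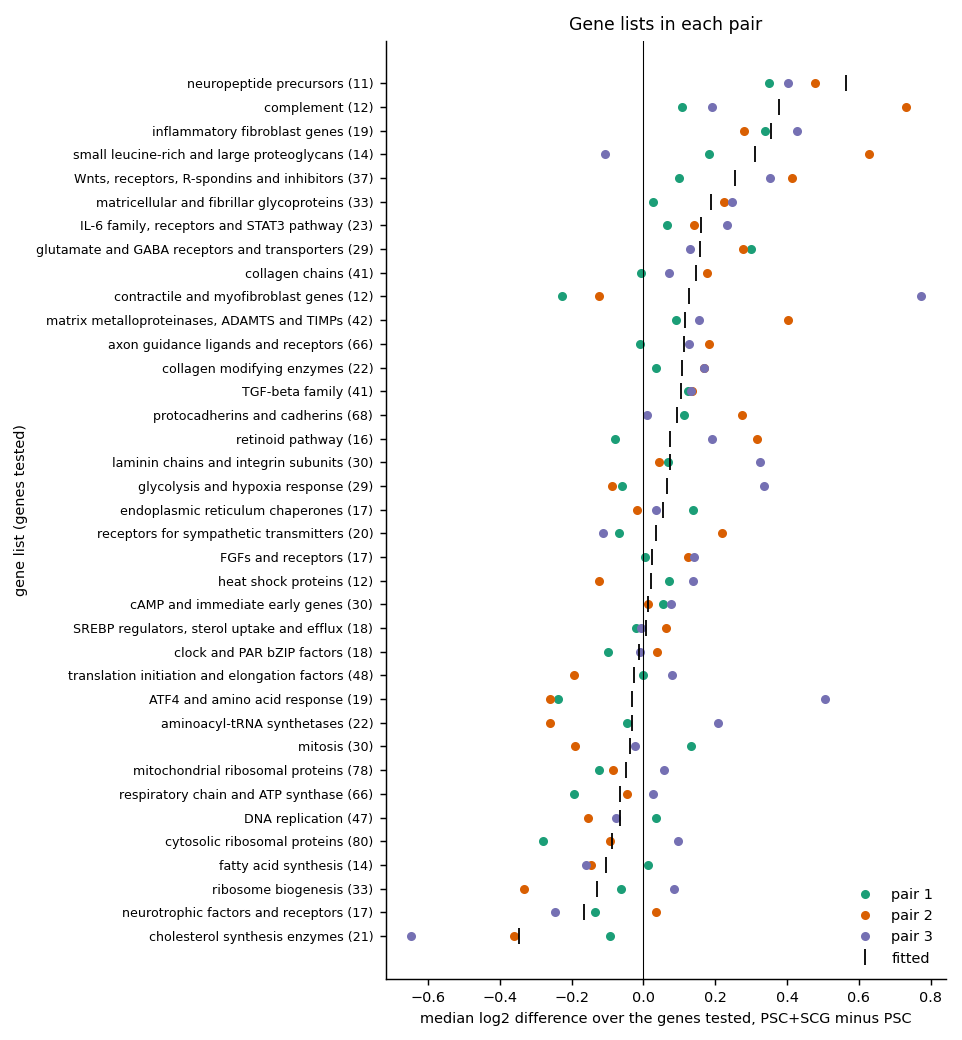
Median log2 difference of PSC+SCG minus PSC (x axis) over the genes tested of each list (y axis, number of genes in brackets), for the 3 pairs (colored points) and for the fitted values (black ticks). Cholesterol synthesis is the lowest list at -0.35 with all 3 pairs below 0, whereas the translation lists have pairs on both sides of 0 and the contractile list runs from -0.23 to 0.77.

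Myofibroblast and growth programs gave 0 genes past the threshold by limma's test. Of 12 contractile genes 0 had an unadjusted p under 0.05, and the median was 0.13. The pairs disagreed, with medians of -0.23, -0.12 and 0.77, and Acta2, smooth muscle actin, whose value was -0.19 without the replicate 3 pair, was at 33709, 25163 and 36041 in PSC and 31156, 20889 and 61518 in PSC+SCG (log2 fold change 0.13 ± 0.15 SE, adjusted p = 0.972). DNA replication (47 genes, median -0.07) and mitosis (30 genes, median -0.04) had 0 genes at an unadjusted p under 0.05 in either direction. Of 41 TGF-beta family genes 0 passed, although 9 were higher and 1 lower at an unadjusted p under 0.05, against 4.04% and 2.05% of all genes, and the median was 0.10.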

How the data were processed

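Poly(A) RNA of the PSC cultures was sequenced on stranded libraries. The authors aligned reads with STAR 2.7.10b to GRCm39, counted them per gene and strand on GENCODE, and divided the counts of each library by a DESeq2 1.38.3 size factor (R 4.2.2); these deposited normalized counts, a signal without a unit, were analysed here, and no tests of the authors were used. Whole reads (within 0.01) could be recovered for 5 of 6 libraries, with 31900689 to 41632381 reads on genes. Gene positions and shared exons were taken from a later GENCODE release than the one the authors counted on.

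Genes with a sum of 10 or more across the libraries (21273, of which 14541 protein-coding) were tested by limma 3.58.1 in R 4.3.3 on log2(normalized count + 1) with group and replicate number as terms, a trended prior and Benjamini-Hochberg adjustment over all genes tested. The model left 2 residual degrees of freedom beside 20.4 of the prior. A gene passed where its adjusted p was 0.05 or less and its fold change reached 0.5 on the log2 scale. The study's model held a batch term, which the sources used here tie to no library; the replicate number stood in its place. Same-numbered libraries were taken as pairs by the plan of the comparison. The deviations of each pair correlated by more than 0.1, a hint from the data and not from the labels, which did not decide the block. The script was tested on simulated data.

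The genes and gene lists were chosen with earlier results of these data known. The text names the 15 most changed genes in each direction past the threshold with a mean count of at least 50, the genes of the study's text, and list members past the threshold or with the smallest p or highest level. Hmgcs1, Srebf2, Klhl30, Gpx3, Enpp2, Stc2, Parm1, Sned1, Nsg1, Ndrg2, Glis3, Kdm7a, Pkhd1l1, Epas1, Il4ra, Ackr3 and Slc6a12 were added after their values were seen. Some genes are not reported here. RefSeq promoter windows (32851 of 27025 genes) were matched by symbol. Alternatives were other pseudocounts, filters, scalings and thresholds, no block, replicates left out, and the edgeR 4.0.16 quasi-likelihood test on recovered reads.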

Additional observations from a re-analysis of the deposited data

Results flagged for a closer look

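Both results below lie outside the protein-coding genes that the comparison used. Of 2698 processed pseudogenes tested, copies of spliced transcripts without a promoter of their own, 19 were lower in PSC+SCG past the threshold (0.704%, against 0.0756% of protein-coding genes) and 0 were higher by limma's test. At an unadjusted p under 0.05, 9 were higher and 685 lower, against 4.04% and 2.05% of protein-coding genes. Their median log2 fold change was -0.50 against 0.01 for protein-coding genes, with pair medians of -0.88, -0.39 and -0.18. Of the 2698, 1131 were lower in all 3 pairs, against 9.94% of protein-coding genes. Processed pseudogenes took 0.512%, 0.544% and 0.654% of the normalized counts in PSC and 0.285%, 0.421% and 0.566% in PSC+SCG. Many are near-identical to their parent genes, the ribosomal protein genes among them. Which reads were counted for a copy, for its parent or for neither is therefore uncertain, and the part of read assignment in the result was not tested.

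Among 2703 lncRNA genes tested, 2 were higher past the threshold (0.074%, against 0.447% of protein-coding genes) and 0 lower (75 higher and 34 lower at an unadjusted p under 0.05). Gm56730 (chr15:82242751-82252084, GRCm39) was at 2786, 1464 and 1327 in PSC and 7006, 5149 and 3807 in PSC+SCG, without overlap (log2 fold change 1.55, limma adjusted p = 1.56e-08). Gm5886 had a log2 fold change of 2.08 (limma adjusted p = 0.00885).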

How the results depend on the processing

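The replicate block decided whether any gene passed: without it 0 genes were higher and 0 lower by limma, with 205 at an unadjusted p under 0.05, and each library left out in turn without the block gave 0 as well (95 to 769 at an unadjusted p under 0.05). With replicates 1 and 2 paired and the replicate 3 libraries each in a block of its own, 129 genes were higher and 34 lower, of which 57 and 4 were among the 76. A library alone in its block does not enter the group difference. The fold changes of that fit are therefore those without the replicate 3 pair, and it is not a separate check. Leaving out a pair gave 29 to 144 higher and 8 to 33 lower genes. Of the 76 genes, 43 did not pass without the replicate 1 pair, 45 without the replicate 2 pair and 13 without the replicate 3 pair. Other pseudocounts, filters, scalings and thresholds gave 52 to 70 higher and 9 to 12 lower genes. The edgeR test with the block on recovered reads of replicates 2 and 3, chosen after seeing the data, gave 34 higher and 11 lower (31 and 5 among the 76). edgeR and DESeq2 over all 6 libraries were not run, since reads of PSC+SCG replicate 1 could not be recovered. The sterol synthesis median stayed below 0 under every alternative run, at -0.49 to -0.19. The ribosomal protein median was 0.0042 without the replicate 1 pair and 0.0036 by edgeR, and without the block it ranged from -0.2931 to 0.0476 over the libraries left out, with 0.0226 without PSC replicate 3. Acta2 was at -0.1911 with the replicate 3 libraries apart, at -0.1911 to 0.3289 over left-out pairs and at -0.2936 to 0.4856 over left-out libraries, with -0.027 without PSC replicate 2, and Gas1 was at -0.0124 to 0.628 over left-out pairs; the cause was not tested. Depth limits genes with few reads, such as Klhl30 and Fmo2.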
